A study of Bos taurus with 9 samples.

Results

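The miR-181 family and the pair of miR-221 and miR-222, which are microRNAs (miRNA) of bovine follicular fluid, were followed across 3 follicle sizes. They were taken as every known bovine miRNA locus of the study named bta-miR-181a, bta-miR-181b, bta-miR-181c, bta-miR-181d, bta-miR-221 or bta-miR-222, with each genomic copy of a name kept. This gave 8 of the 101889 deposited loci, 6 of the miR-181 family and 2 of the miR-221 and miR-222 pair, and all 8 belong to a set of 249 loci of known miRNA and of miRNA named by homology to other species. They were chosen by name.

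Extracellular vesicles (EVs) are membrane-bound particles that cells release, and those of follicular fluid hold small RNA. The study proposes them as a potential means of communication between the cells of the ovarian follicle. Small RNA of the EVs was sequenced in 9 samples, 3 from small (3 to 5 mm), 3 from medium (6 to 9 mm) and 3 from large (over 9 mm) follicles of cow ovaries from an abattoir. Each sample was 1 pool of fluid from many follicles of a size, so the pools average over animals, and no treatment was given. Age and breed are not given in the sources used here, and fluid of the 3 sizes was gathered in each of 3 collections. The labels do not tie a sample to a collection, so no fit has a term for it and a difference between collections stays in the spread within a size.

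A mature miRNA is cut from either arm of a hairpin precursor (5p or 3p) and lowers the output of messenger RNAs that pair with it. The miR-181 family is best known from lymphocyte development, where miR-181a tunes the sensitivity of the T cell receptor. miR-221 and miR-222 are cut from neighbouring hairpins of 1 transcript and are known to repress the cell cycle inhibitor CDKN1B and the receptor KIT, whose ligand is made by granulosa cells.

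The 8 loci lie in 4 pairs on the UMD3.1 bovine genome. On the plus strand of chromosome 11, bta-miR-181a (chr11:95709449-95709471) is followed by bta-miR-181b (chr11:95710641-95710664), with 1192 bases between their starts. On the minus strand of chromosome 16, second copies of bta-miR-181a (chr16:79685996-79686018) and bta-miR-181b (chr16:79685811-79685834) start 185 bases apart. On the plus strand of chromosome 7, bta-miR-181c (chr7:12915090-12915112) and bta-miR-181d (chr7:12915272-12915295) start 182 bases apart. On the plus strand of the X chromosome, bta-miR-222 (chrX:103538209-103538232) and bta-miR-221 (chrX:103538899-103538920) start 690 bases apart.

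In the RefSeq annotation of another bovine assembly (ARS-UCD2.0, used for neighbours only), the chromosome 11 pair overlaps the nuclear receptor gene NR6A1 and the long non-coding RNA LOC100848407. The miR-181c and miR-181d genes overlap NANOS3, a gene known for its role in germ cells. The miR-221 and miR-222 genes overlap 1 long non-coding RNA, LOC132344329, and the chromosome 16 pair overlaps no other gene. A pair of opposite arms was also in the set of 249 loci under names from other species. efu-miR-181f (chr11:95709487-95709508) lies on the 3p side of the chromosome 11 miR-181a hairpin, here called miR-181a-2, and chi-miR-181c-3p (chr7:12915129-12915150) lies on the 3p side of miR-181c. They are described as partner arms and are not counted among the 8.

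Counts on all deposited loci summed to 8941598 to 14664460 per sample, with no normalization by the authors. Counts on the 249 miRNA loci were 1257402 to 3394554 in small, 437626 to 1192597 in medium and 146617 to 660594 in the large follicles. The 249 loci therefore took 14.1% to 26.9% of the counts in small, 3.75% to 11.2% in medium and 1.43% to 5.65% in the large follicles. The 8 loci together had from 2417 counts in Large 10 to 34429 in Small 1. The smallest share of the miRNA counts that this depth can show, 3 counts, ran from 8.84e-05% in Small 1 to 0.00205% in Large 11, and such limits cover counting error only, since PCR copies are not independent molecules. Large 12 held over 4 times the miRNA counts of the other large samples and stood apart from them in miR-221 and miR-222. Results of the 8 loci and their partner arms that rest on it are given with and without it. Fold changes of other miRNA are given with it only.

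Abundance is given as normalized counts, which are counts per 1000000 counts of the 249 loci after scaling by the TMM method of edgeR. The test was the quasi-likelihood test of edgeR, fitted once to the 9 samples, with Benjamini-Hochberg adjustment over the 249 loci (false discovery rate, FDR), and a locus was called when its FDR was below 0.05. A positive log2 fold change is a higher value in the first-named size. Values per sample are given in the order Small 1, 2 and 4, Medium 5, 6 and 8, and Large 10, 11 and 12. Because the miRNA part of the libraries shrank with size, every direction of this kind is relative to other miRNA, and the values relative to all deposited loci follow further on.

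miR-181a had the highest counts of the 6 names, and its loci held places 46 and 47 of 249 in mean normalized count per base. miR-181b followed at places 104 (chromosome 11) and 106 (chromosome 16), miR-221 at 128, miR-222 at 134, miR-181c at 171 and miR-181d at 247. Over the 9 samples the ranges of miR-181a and miR-181b did not overlap, nor did those of miR-181c and miR-181d. The ranges of miR-181b, miR-221 and miR-222 overlapped one another, so their order was not larger than the spread between samples.

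The chromosome 11 locus of bta-miR-181a had normalized counts of 4247, 4248 and 2978 in small, 2979, 3449 and 3752 in medium, and 5577, 7360 and 6886 in the large follicles. All 3 large samples lay above all other samples, while small and medium overlapped. The mean was 3825 ± 733 (SD, n = 3) in small, 3394 ± 390 in medium and 6608 ± 924 in the large follicles. The log2 fold change of large versus small was 0.79 (SE 0.30) with an edgeR FDR of 0.0505, and that of large versus medium was 0.96 (SE 0.30) with an FDR of 0.0555. Neither passed the threshold. The copy on chromosome 16 gave log2 fold changes of 0.78 and 0.93, with FDRs of 0.0505 and 0.0555.

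The chromosome 11 locus of bta-miR-181b had normalized counts of 688, 519 and 574 in small, 504, 615 and 658 in medium, and 881, 1151 and 1272 in the large follicles. The 3 large samples were again the highest. Relative to the other miRNA it was higher in large than in small follicles, with a log2 fold change of 0.89 (SE 0.31) and an edgeR FDR of 0.0354, a direction that reversed when counts were scaled to all deposited loci. The chromosome 16 locus of bta-miR-181b had normalized counts of 591, 451 and 498 in small, 440.0, 508 and 616 in medium, and 725, 938 and 1210 in the large follicles. Its log2 fold change of large versus small was 0.90 (SE 0.32) with an edgeR FDR of 0.0408, and it reversed under the same scaling. The miR-181b calls were not firm, since without Large 12 the log2 fold changes were 0.77 (FDR 0.0681) and 0.69 (FDR 0.104), and each locus was called in 2 of the 9 fits that left out 1 sample. Against medium follicles the log2 fold changes of miR-181b were 0.90 (FDR 0.0703) and 0.88 (FDR 0.0782).

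bta-miR-181c, from the chromosome 7 pair, had normalized counts of 302, 152 and 131 in small, 93.5, 98.0 and 85.1 in medium, and 178, 305 and 113 in the large follicles. The medium samples were the lowest and did not overlap with either other size, whereas small and large overlapped. Medium versus small gave a log2 fold change of -1.08 (SE 0.46) with an FDR of 0.226, large versus medium gave 1.08 (SE 0.47) with an FDR of 0.127, and neither was called. The 95% interval of large versus small ran from -1.01 to 1.01, which covers a halving and a doubling.

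bta-miR-181d was near the limit of the depth in the larger follicles. Its normalized counts were 68.3, 34.9 and 33.1 in small, 12.8, 34.2 and 17.7 in medium, and 0, 35.5 and 35.4 in the large follicles, and the sizes overlapped. The large values rest on 0, 5 and 20 reads, and the 0 in Large 10 allows a share of up to 0.00195% of its miRNA counts. No comparison was called, with log2 fold changes of -0.86 (SE 0.75, FDR 0.370) for large versus small and -1.11 (SE 0.71, FDR 0.453) for medium versus small.

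bta-miR-222 had the largest log2 fold change of the 8 loci, regardless of sign, in large versus small and in large versus medium follicles. This held on the scale of the 249 miRNA, and it did not hold in medium versus small follicles. Without Large 12, miR-222 was the largest in neither comparison. Its normalized counts were 147, 141 and 131 in small, 171, 173 and 230.0 in medium, and 335, 298 and 1525 in the large follicles. No sample of a size overlapped with another size, and Large 12 was more than 4 times as high as the other large samples. Relative to the other miRNA, miR-222 was higher in large than in small follicles (log2 fold change 2.38, SE 0.57, edgeR FDR 0.00687) and than in medium follicle EVs (1.93, SE 0.56, FDR 0.0478), and the difference from small was -0.043, without a call, when counts were scaled to the total of all deposited loci. That near-zero value rests on Large 12, since Large 10 and Large 11 lay below all 3 small samples in their share of all deposited counts. Without Large 12 the log2 fold change of large versus small was 1.18 (FDR 0.0193), and over the 9 fits that left out 1 sample the FDR ran from 0.00451 to 0.0270. The comparison with medium follicles was 0.72 (FDR 0.167) without Large 12 and was called only in the fit without Large 10, of those 9. Scaled to the total of all deposited loci it was 1.08 (FDR 0.449).

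bta-miR-221, whose hairpin neighbours that of miR-222, had normalized counts of 307, 256 and 916 in small, 249, 155 and 252 in medium, and 78.1, 114 and 1268 in the large follicles. Large 10 and Large 11 were the lowest of the 9 samples and Large 12 was the highest. Large versus small gave a log2 fold change of 0.02 (SE 0.84, edgeR FDR 0.988) with a 95% interval from -1.81 to 1.85, which covers changes of over 3-fold in either direction. Without Large 12 the log2 fold change was -2.37 (FDR 0.0112), so that 1 library decided the value and the call. The raw counts were 14 in Large 10, 16 in Large 11 and 717 in Large 12, which are 0.00908% (95% Wilson interval 0.00541% to 0.0153%), 0.0109% (0.00672% to 0.0177%) and 0.109% (0.101% to 0.117%) of their miRNA counts.

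**Figure D1:**
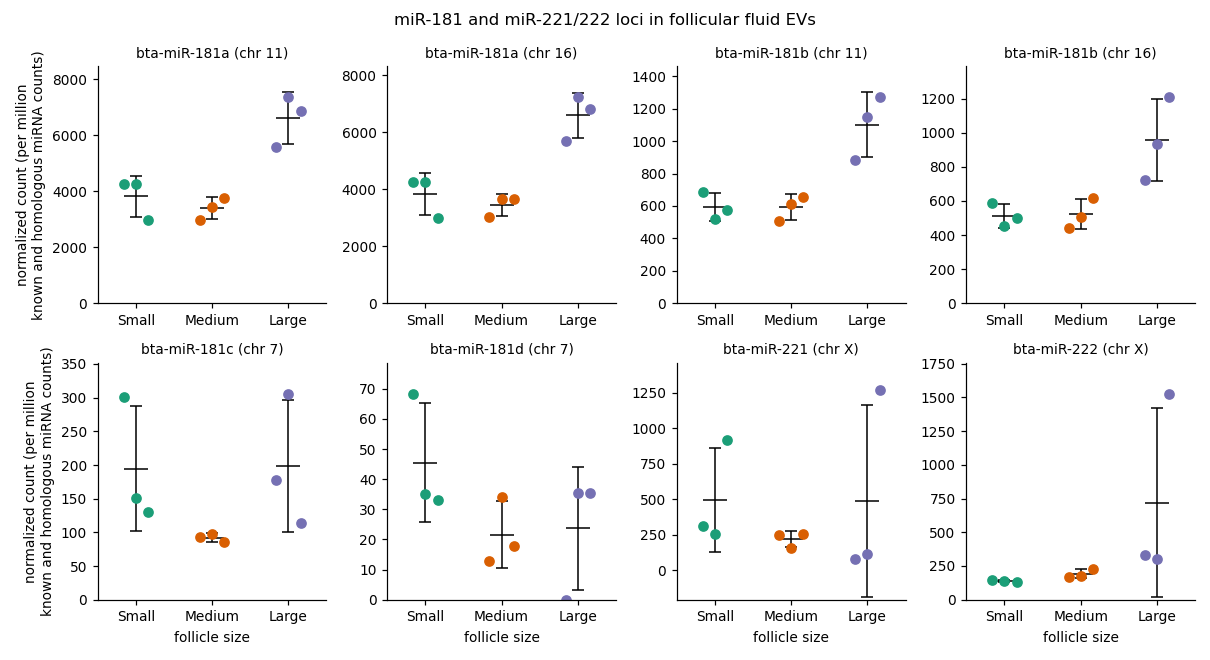
Normalized counts (counts per 1000000 of the 249 known and homologous miRNA loci, linear axis) of the 8 loci in each sample, by follicle size; points are samples, and the bars are the mean and SD of 3 samples, which for miR-221 reach below 0. The large samples are highest for both copies of miR-181a and miR-181b and for miR-222 on this scale, an order that is lost when counts are set against all deposited loci, and 1 large sample (1268) stands far above the other large samples in miR-221.

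In large versus small follicle EVs, 3 of the 8 loci were called, all higher in large, beside 42.2% of the 249 loci called, 17.7% higher and 24.5% lower. The 3 calls stand for 2 names, miR-222 and the 2 copies of miR-181b. The count was 1 without Small 1, 2 or 4, Medium 5 or 6, or Large 11, 2 without Large 12, 3 without Medium 8 and 4 without Large 10. The median log2 fold change was 0.79 over the 8 loci and -0.18 over the 249. Normalized counts did not overlap in 5 of the 8 loci, all higher in large, where 53% of all loci did not overlap and 23.7% did not overlap with large higher.

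In medium versus small follicle EVs none of the 8 was called by edgeR's quasi-likelihood test, as none of the 249 was (0%). At an unadjusted p under 0.05, 1 of the 8 (miR-181c) and 44 of the 249 passed, and none of the 8 was called by edgeR's exact test, beside 16 of the 249, or by DESeq2, beside 28 of 248, where DESeq2 gave no p for miR-221 and so tested 7 of the 8. Counts did not overlap in 3 of the 8 loci, with miR-222 higher in medium and miR-181c and miR-221 lower, beside 28.5% of all loci. The medians were -0.16 and -0.17. In large versus medium follicle EVs 1 of the 8 was called (miR-222, higher in large), beside 10.4% of the 249 called, 5.62% higher and 4.82% lower. Counts did not overlap in 6 of the 8, all higher in large, beside 36.1% of all loci and 18.5% with large higher, and the medians were 0.95 and 0.00. The comparisons share their samples, so they are not independent of each other.

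**Figure D2:**
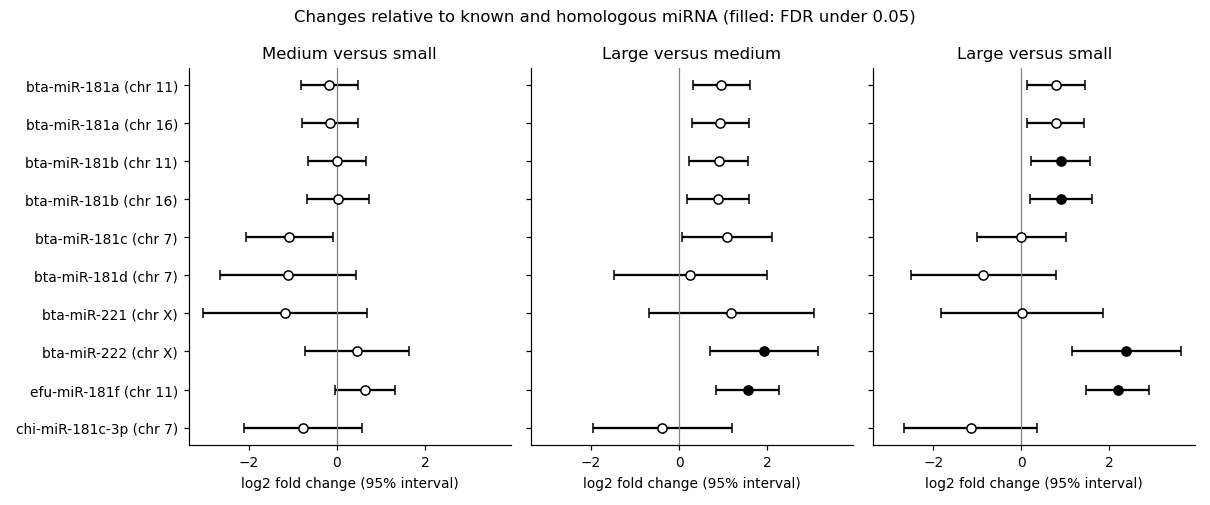
Log2 fold change of the 8 loci and the 2 partner arms in each pair of sizes, relative to the 249 miRNA loci, with the 95% interval from edgeR's quasi-likelihood fit of 9 samples; filled points have an FDR under 0.05. Comparing large with small follicles, miR-222 (2.38), efu-miR-181f (2.19) and both copies of miR-181b are filled, directions that reverse or reach -0.043 (miR-222) when counts are scaled to the total of all deposited loci, and no point is filled in medium versus small.

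The sign of the log2 fold change of large versus small depended on the scaling for each of the loci but miR-181d, which was negative under both scalings given here. When the total count of all deposited loci was used in place of TMM within the 249 loci, the median log2 fold change of large versus small over the 249 moved from -0.18 to -3.06, and 6 of the 8 loci were called, all lower in large, beside 77.1% of the 249 called and 76.7% called lower. The log2 fold changes were then -2.10 and -2.11 for miR-181a, -2.00 and -1.94 for miR-181b, -3.23 for miR-181c, -3.67 for miR-181d, -2.44 for miR-221 and -0.043 for miR-222. Measured from the median of the 249, which a change of scale shifts with the members, the order of the loci changed little. miR-222 lay 2.56 above the median within the set (1.47 without Large 12) and 3.02 above it with all loci. The chromosome 11 loci of miR-181a and miR-181b lay 0.97 and 1.07 above the median within the set and 0.96 and 1.06 above it with all loci. miR-181c lay 0.18 above the median on the first scale and 0.17 below on the second (-0.17), and miR-181d lay below it on both (-0.68 and -0.60).

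**Figure D3:**
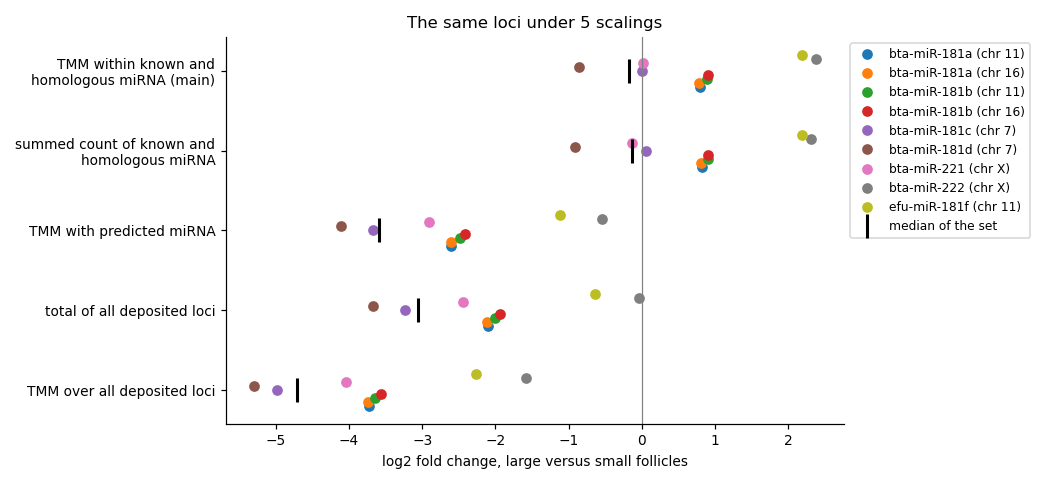
Log2 fold change of large versus small follicle EVs for the 8 loci and efu-miR-181f under 5 scalings of the same counts; the black bar is the median of the 249 loci. The bar moves from -0.18 to -4.71 and the points move with it. Under each of the 5 scalings miR-222, efu-miR-181f and both copies of miR-181a and of miR-181b stay to its right.

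The share of each name in a library shows the same without a fitted factor. miR-181a, copies summed, took 0.813%, 0.795% and 0.600% of the miRNA counts in small, 0.698%, 0.713% and 0.738% in medium, and 1.31%, 1.40% and 1.17% in the large follicles. Its slope on the size rank was 0.280 percentage points per size (exact permutation test over 1680 arrangements of the 9 samples, two-sided, p = 0.0143, adjusted over the 16 shares tested, which are the 6 names and the sums of both groups on 2 denominators, 0.0286). Of all deposited counts, miR-181a took 0.188%, 0.112% and 0.161% in small, 0.0271%, 0.0267% and 0.0827% in medium, and 0.0208%, 0.0201% and 0.0663% in the large follicles. The small samples were the highest there, and the slope was -0.0590 (exact permutation p = 0.0107, adjusted 0.0286).

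The other names differed. The share of the miRNA counts rose with size for miR-181b, from a mean of 0.107% in small and 0.116% in medium to 0.200% in the large follicles (exact permutation p = 0.00476, adjusted 0.0254), while its share of all deposited counts fell (p = 0.0226, adjusted 0.0402). For miR-222 the share of the miRNA counts rose (exact permutation p = 0.00119, the smallest this design allows, adjusted 0.0190). The share of all deposited counts taken by miR-222 was 0.00325%, 0.00186% and 0.00355% in small and 0.000616%, 0.000411% and 0.00737% in the large follicles, with no trend detected (exact permutation p = 0.979). Large 10 and Large 11 lay below all small samples and Large 12 above them, and without Large 12 the share of miR-222 fell with size (exact permutation p = 0.025, adjusted 0.0400), which 1 library thus decides. The shares of miR-181c and miR-181d fell among all deposited counts (exact permutation, adjusted p = 0.0286 and 0.0254) and showed no detected trend among miRNA counts (adjusted p = 0.946 and 0.190). miR-221 showed no detected trend on either (adjusted p = 0.946 and 0.156). In all, 3 of the 6 names passed with a positive slope among miRNA counts and 4 of 6 with a negative slope among all counts. A passing slope need not be a step at each size. The mean miRNA share of miR-181a was 0.736% in small, 0.716% in medium and 1.30% in the large follicles. The trend of the share was not tested over the 249 loci. By edgeR, 17.7% of the 249 were called higher in large than in small relative to the other miRNA. With counts scaled to the total of all deposited loci, 76.7% were called lower. No name passed on either scale without Small 4 or without Medium 8, and none passed among all counts without Large 10 or without Large 11, where 1 name passed among miRNA counts. Without Small 1, 2 names passed among all counts. A sample fewer also leaves fewer arrangements.

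Ratios of 2 loci within a library need no scaling at all, and 5 were tested. The ratio of miR-222 to miR-221 was 0.477, 0.553 and 0.143 in small, 0.684, 1.12 and 0.913 in medium, and 4.29, 2.63 and 1.20 in the large follicles. The sizes did not overlap, and miR-221 had the higher read count of the pair in each small sample and miR-222 in each large one. The log2 ratio rose by 1.40 per size (exact permutation test, two-sided, p = 0.00119, the smallest the design allows, adjusted over the 5 ratios 0.00298), and the geometric mean in the large follicles was 6.98 times that in small. Without Large 12, whose ratio was the lowest of the large samples, the slope was 1.62 (adjusted p = 0.00446). The ratios of Large 10 and Large 11 rest on 14 and 16 reads of miR-221 and 60 and 42 of miR-222. Large 12 had 717 and 862. Leaving out each sample in turn gave slopes from 1.12 to 1.62 and adjusted p from 0.00446 to 0.0134.

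The partner arm efu-miR-181f had normalized counts of 196, 175 and 172 in small, 266, 269 and 309 in medium, and 597, 845 and 1035 in the large follicles. No size overlapped with another. Its log2 fold change relative to the other miRNA was 2.19 (SE 0.33, edgeR FDR 0.000598) for large versus small and 1.55 (SE 0.32, FDR 0.0297) for large versus medium. It was -0.64 for large versus small when scaled to all deposited loci, which reverses the sign. Without Large 12 the first was 1.99 (FDR 0.00125), and the second was not called without Medium 5, Medium 6 or Large 11 (FDR 0.118, 0.132 and 0.108).

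Set against the 5p arm counted on the same hairpin, the 3p arm of miR-181a-2 made up 4.41%, 3.95% and 5.47% of the counts of both arms in small, 8.19%, 7.23% and 7.61% in medium, and 9.67%, 10.3% and 13.1% in the large follicles. The 3 sizes did not overlap, and the 3p arm remained the minor one in every sample. The log2 ratio of 3p to 5p counts rose by 0.68 per size (exact permutation test, two-sided, p = 0.00119, adjusted over the 5 ratios 0.00298), with a ratio of geometric means of large over small of 2.57. Leaving out each sample in turn gave 0.62 to 0.73 per size, with adjusted p from 0.00446 to 0.00893. The 5p counts of this locus may include reads of the chromosome 16 copy, so the percentages apply to the counts as assigned.

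The other ratios showed no detected trend. The 3p arm of miR-181c, chi-miR-181c-3p, made up 13.3% to 24.3% of its hairpin's counts in small, 19.8% to 25.9% in medium and 0% to 17.9% in the large follicles, where it rests on 0, 5 and 14 reads (exact permutation, adjusted p = 0.194). The ratio of miR-181d to miR-181c was 0.226 to 0.253 in small, 0.137 to 0.349 in medium and 0 to 0.313 in the large follicles (exact permutation, adjusted p = 0.257, and 0.0417 with a slope of -1.13 without Large 12). The ratio of miR-181b to miR-181a stayed between 0.114 and 0.181 in all 9 samples (exact permutation, adjusted p = 0.664).

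**Figure D4:**
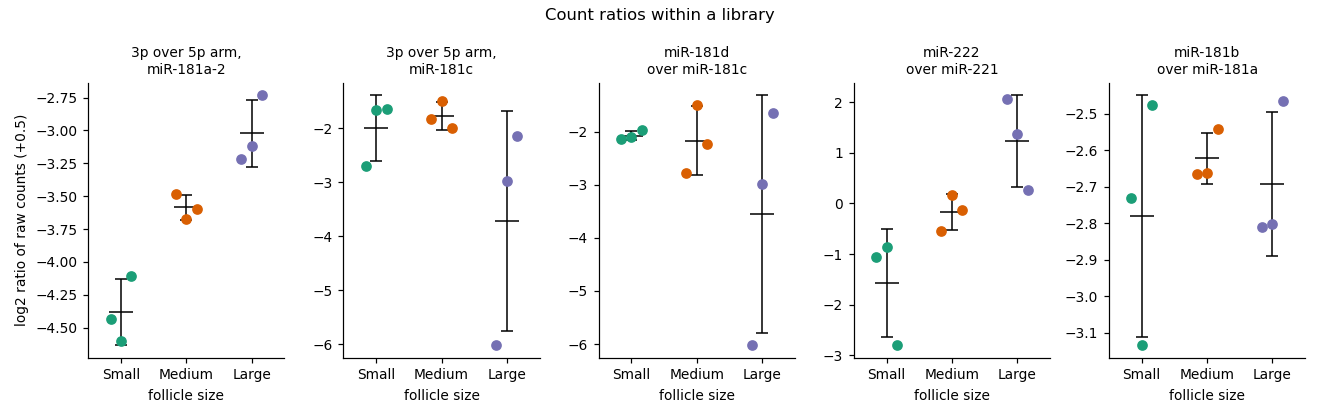
Log2 ratio of raw counts (0.5 added to each) within each library for 5 pairs of loci, by follicle size; points are samples and bars are the mean and SD of 3 samples. The ratios of miR-222 to miR-221 and of the 3p to the 5p arm of miR-181a-2 do not overlap between any sizes, and the other 3 ratios overlap.

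For scale, the same slope was computed for every pair of arms or of neighbouring hairpins in the 249 loci, a comparison chosen after the data were seen. Each ratio was the rarer locus over the commoner one, a choice that sets the sign of the slope. The 46 pairs of arms of a hairpin had slopes from -1.50 to 1.63 per size with a median of 0.12. That of miR-181a-2 stood at place 15 from the top, and at place 26 by size of the slope regardless of sign. The 86 pairs of loci on neighbouring hairpins within 1200 bases had slopes from -2.25 to 1.58 with a median of 0.04. There miR-222 over miR-221 stood at place 4 from the top, and at place 7 regardless of sign.

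Both copies of miR-181a had nearly the same counts, with 40506 on chromosome 11 and 40493 on chromosome 16 over the 9 samples. The chromosome 11 locus took 48.5% to 50.6% of them per sample, a mean of 49.9% ± 0.624 (SD, n = 9), and no sample was more than 1.66 counting SDs from an equal split (exact sign-flip permutation test, two-sided, p = 0.617). For miR-181b the chromosome 11 locus had 6787 counts and the chromosome 16 locus 5958. It took 51.2% to 55.1% per sample, a mean of 53.5% ± 1.35 (SD, n = 9), and was the higher locus in 9 of 9 samples (exact sign-flip permutation test, two-sided, p = 0.00391, the smallest 9 samples allow). How the authors assigned reads that map to both copies is not given in the sources used here, so the split of counts between copies is uncertain and the 2 loci of a name are not independent measurements.

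**Figure D5:**
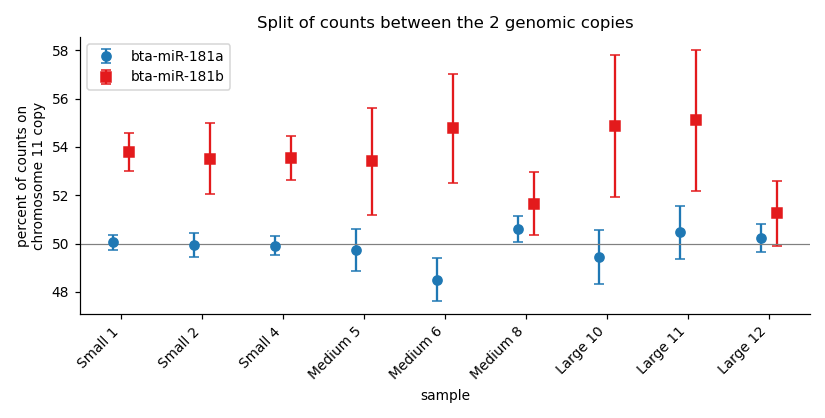
Percent of the counts of bta-miR-181a (circles) and bta-miR-181b (squares) that were on the chromosome 11 copy in each of the 9 samples; bars drawn around each point are 1 SD of the counting error of an equal split. miR-181a stays between 48.5% and 50.6%, and miR-181b lies above 50% in 9 of 9 samples.

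The names whose normalized counts were most like each member over the 9 samples are given as a description, by Pearson's r of log2(normalized count + 1) over 217 other names. All share the same libraries and their uneven depth. miR-181a was most like bta-miR-146a (r = 0.891), bta-miR-182 (0.862) and bta-miR-142-5p (0.851). miR-181b was most like bta-miR-142-5p (0.946), bta-miR-132 (0.930) and chi-miR-28-3p (0.882).

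miR-222 was most like chi-miR-28-3p (0.920), bta-miR-149-5p (0.905) and bta-miR-132 (0.896), and miR-221 was most like bta-miR-320a (0.930), bta-miR-214 (0.878) and chi-miR-3432-3p (0.849), with no name in common. miR-181d was most like bta-miR-760-3p (0.912), bta-miR-155 (0.852) and bta-miR-193a-3p (0.818). miR-181c had the lowest likeness, with bta-miR-2285aa (0.774), bta-miR-146a (0.723) and bta-miR-26b (0.659). Among the members, miR-181a and miR-181b had r = 0.909, miR-222 and miR-181b 0.868, miR-221 and miR-222 0.310, and miR-181c and miR-181d 0.113.

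In lists of miRNA known from certain cell types, those of the follicle among them, 6 of 17 loci were called between large and small follicles. Of these, 5 were higher and 1 lower in large, beside the 42.2% of the 249 called. The red cell list (bta-miR-451 and bta-miR-486) summed to 239 to 2323 normalized counts in small, 1269 to 2706 in medium and 6720 to 13226 in the large follicles, and relative to the other miRNA 1 of its 2 loci was called higher in large than in small (bta-miR-486, log2 fold change 3.29, edgeR FDR 0.00548). The leukocyte list (bta-miR-142-5p, bta-miR-150, bta-miR-155, bta-miR-146a and bta-miR-342) summed to 1788 to 2607, 1590 to 1861 and 1667 to 6592, and 3 of its 5 loci were called higher (bta-miR-150 by 5.68, bta-miR-142-5p by 2.25 and bta-miR-342 by 0.98 on the log2 scale). In Large 10, 11 and 12, bta-miR-150 had 55.8, 362 and 830 normalized counts. Both lists were highest in Large 12, the sample with the highest miR-221 and miR-222. The endothelial miRNA (458) and the ovarian somatic list (36619), given below, were also highest in Large 12. The mesenchymal and thecal list was highest in Small 1 (22399). The endothelial miRNA bta-miR-126-5p ran from 116 to 242 in small, 56.8 to 119.7 in medium and 195 to 458 in the large follicles, and it was called higher in large than in medium (log2 fold change 1.88), as miR-222 was, but not in large versus small.

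The mesenchymal and thecal list (bta-miR-143, chi-miR-145-3p, bta-miR-214 and 2 loci of bta-miR-199a-5p) summed to 5923 to 22399, 2581 to 7647 and 4767 to 10587, with 1 of 5 loci called lower in large than in small (chi-miR-145-3p, log2 fold change -1.86, FDR 0.0391). The ovarian somatic list (bta-miR-202, chi-miR-202-3p, bta-miR-224 and bta-miR-132) summed to 17721 to 19408, 15716 to 27056 and 11879 to 36619, with 1 of 4 called higher (bta-miR-132, 4.10, FDR 0.00659). In Large 10, 11 and 12, bta-miR-132 had 112, 455 and 2068 normalized counts, so Large 12 weighs heavily in that fold change. No listed miRNA was at 0 in any sample. The part of these cell types in the miR-181b, miR-222 and miR-181a-2 results was not tested. In EVs pooled from a fluid, more vesicles from a cell type and more of a miRNA per vesicle cannot be told apart.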

How the data were processed

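Small RNA libraries from the EV RNA of 9 pools were grouped by the follicle size in their labels. The authors removed adapters, mapped reads with BWA 0.7.5a to UMD3.1, merged the 9 samples to define loci, then deposited, for every locus, unnormalized counts of the reads that fell on its high-density stretch. The members and lists were chosen with earlier results of these data known. Locus names came from the study's list of known and homologous miRNA (249 loci, 225 names). The counts were used as deposited in R 4.3.3 with edgeR 4.0.16 (limma 3.58.1), by TMM, a fit of 3 groups and the two-sided quasi-likelihood test, with Benjamini-Hochberg adjustment. Standard errors and 95% intervals were derived from the test statistic. Shares, ratios and copies were tested by exact permutation in Python 3.11.15 (pandas 2.3.3, scipy 1.17.1, numpy 2.4.6), and matplotlib 3.10.9 drew the figures. The quasi-likelihood fit was tested on simulated counts of the 249 loci, with as many loci raised as lowered. The scalings to all deposited loci and the permutation tests were not simulated. The text names the 8 members, both partner arms, the 3 names most like each member and all listed cell type miRNA. Alternatives were the exact test, DESeq2 1.42.0, its size factors, 4 other scalings, filterByExpr, an FDR under 0.1, pairwise fits, summed copies, other share denominators, a pseudocount of 1 for ratios, and leaving out each sample. Mature sequences and shared seeds were not analysed here.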

Additional observations from a re-analysis of the deposited data

Results flagged for a closer look

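A locus outside the miRNA list drew attention because it lies opposite bta-miR-181a on chromosome 16, where the 3p arm of that hairpin would be (chr16:79685956-79685977, minus strand, UMD3.1). It had 64 counts over the 9 samples and more than 3 counts in 7 of them. The counts were 13, 8 and 17 in small, 6, 2 and 7 in medium, and 0, 5 and 6 in large follicle EVs. The 3p arm on chromosome 11 (efu-miR-181f) had 2757 counts, 43.1 times as many. The 5p loci of both hairpins had nearly equal counts, but how reads that map to both copies were assigned is not given. An equal 5p output of the hairpins therefore cannot be read from that split. The chromosome 16 locus took 0% to 0.489% of the counts assigned to its 2 arms per sample, and this percentage has the same limit. No trend was tested at this depth.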

How the results depend on the processing

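No paired analysis was possible because the sizes share no replicate numbers. Each of the 3 collections gave fluid of the 3 sizes, but the labels do not say which samples share a collection.

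The number of the 8 loci called in large versus small follicles (3) was 5 by edgeR's exact test, by DESeq2, with DESeq2 size factors, with the summed count of the 249 loci and at an FDR under 0.1, 1 in a fit of the 2 groups alone, and 7, 6 and 7 (all lower) with TMM over the 704 loci with predicted miRNA, the total of all deposited loci and TMM over all deposited loci. Over the set, 105 of 249 loci were called, against 116 by the exact test, 125 of 248 by DESeq2, which gave no p for miR-221, 112 with its size factors, 109 with the summed count, 125 at an FDR under 0.1, 84 in the fit of 2 groups, and 218, 192 and 232 under the last 3 scalings. In large versus medium (1) it was 3 by the exact test, 5 by DESeq2, 3 with its size factors, 5 at an FDR under 0.1, 0 in the fit of 2 groups, 2 with copies summed, and 0 under each of the last 3 scalings, beside 26 of the 249 called in the reported fit and 55, 63 of 248, 34, 65, 2, 33 of 225 names, and 43, 0 and 0. In medium versus small (0) it was 4, 1 and 3 under those 3, beside 101, 59 and 109 of the 249. Leaving out a sample gave 1 to 4 in large versus small and 0 to 1 in large versus medium.

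Log2 fold changes reversed under those 3 scalings, which set the loci against reads other than known miRNA. For large versus small they were, in that order, -2.60, -2.10 and -3.73 for miR-181a on chromosome 11 (-2.61, -2.11 and -3.74 on chromosome 16), -2.48, -2.00 and -3.65 for miR-181b on chromosome 11 (-2.41, -1.94 and -3.57 on chromosome 16), -3.67, -3.23 and -4.98 for miR-181c, -2.91, -2.44 and -4.04 for miR-221, -0.54, -0.043 and -1.58 for miR-222, and -1.12, -0.64 and -2.26 for efu-miR-181f. For medium versus small they were -1.27, -1.12 and -2.07 for miR-222, -1.72, -1.59 and -2.57 for miR-181b on chromosome 16, and -1.15, -0.997 and -1.99 for efu-miR-181f. For large versus medium they were -0.68, -0.35 and -1.01 for miR-181a on chromosome 11 (-0.69, -0.35 and -0.998 on chromosome 16), -0.69, -0.35 and -0.996 for miR-181b on chromosome 11 (-0.69, -0.34 and -1.001 on chromosome 16), -0.73, -0.42 and -1.10 for miR-181c, -1.11, -0.77 and -1.25 for miR-181d, and under the last -0.032 for miR-221 and -0.27 for efu-miR-181f.

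Values near 0 also changed sign. Large versus small was -0.0032 (exact test) and -0.013 (2 groups) for miR-181c, and -0.0051 (exact test), -0.014 (DESeq2 size factors), -0.13 (summed count) and -0.16 (2 groups) for miR-221. Medium versus small was 0.098 (DESeq2), 0.098 (its size factors), 0.11 (summed count), 0.12 (2 groups) and 0.11 (copies summed) for miR-181b on chromosome 11. Without the 10 highest other loci the slope of the miRNA share of miR-181c was -0.0012, and with loci of 18 to 30 bases 2 of 6 names passed among all counts and the slope of miR-222 was 0.0018.

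Leaving out each sample in turn gave, for large versus small, -0.44 to 0.47 for miR-181c and -2.37 to 0.92 for miR-221. For medium versus small it gave -0.11 to 0.14 for miR-181b on chromosome 16 and -0.090 to 0.12 on chromosome 11. For large versus medium it gave -0.37 to 0.75 for miR-181d, -1.20 to 1.68 for miR-221 and -0.74 to 0.11 for chi-miR-181c-3p. Names passing ran from 0 to 3 among miRNA counts and from 0 to 5 among all counts. Slopes of the miRNA share ran from -0.0023 to 0.0037 for miR-181c and from -0.020 to 0.0090 for miR-221, and of the share of all counts from -0.0012 to 0.00039 for miR-222. The log2 ratio of miR-181b to miR-181a had slopes of -0.046 to 0.11, and the mean log2 ratio of the copies of miR-181a was -0.013 to 0.0025. The cause of these changes was not tested. The depth limits miR-181d, chi-miR-181c-3p and miR-221 most, which have under 20 reads in 1 or more large samples.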
